A study of Mus musculus with 7 samples.

Results

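The R-spondin system of the adrenal gland was examined through its 9 genes: the ligands Rspo1, Rspo2, Rspo3 and Rspo4, the receptors Lgr4, Lgr5 and Lgr6, and the membrane ubiquitin ligases Znrf3 and Rnf43. The genes were taken by symbol from the authors' array table, where each had 1 transcript cluster, and they are 9 of 20719 genes measured. The samples were GFP-positive adrenal cells sorted from 6-week-old male mice on a C57BL/6J background. In the Wnt+ group (3 arrays) the mice carried TCF/Lef:H2B-GFP, a histone-GFP fusion driven by multimerised TCF/LEF sites and a minimal Hspa1b promoter, which reads canonical Wnt signalling. In the SF1+ group (4 arrays) they carried Sf1:eGFP, driven by a BAC fragment of Nr5a1, the gene of the steroidogenic transcription factor SF1. Each array held amplified RNA of 1 independent sort of 10 pooled adrenals, so a value describes a pool and not an animal. The reporter line and the sorted population differ together and cannot be told apart.

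Wnt ligands act through Frizzled receptors and the co-receptors LRP5 and LRP6. ZNRF3 and RNF43 tag these receptors for removal from the cell surface and so dampen the signal. A secreted R-spondin binds an LGR receptor and one of these ligases together, the ligase is cleared from the membrane, and Wnt receptors accumulate. Znrf3, Rnf43 and Lgr5 are themselves known targets of beta-catenin in several tissues. In the mouse adrenal, cells of the capsule are the known source of Rspo3, which sustains Wnt signalling and renewal in the outer cortex, and Znrf3 restrains that signal.

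Upstream sequences are shown for the genes called in a tumor cell line comparison of the same authors, given last, that have a RefSeq promoter entry (GRCm38.p6), since the Wnt reporter itself consists of TCF/LEF sites. Entries matched 5 of the 9 genes, namely Rspo1, Rspo4, Lgr4, Lgr6 and Rnf43, and those of Rspo2, Rspo3, Lgr5 and Znrf3 are not shown. Each sequence is the 250 bases before an annotated start, written 5′ to 3′ on the strand of the gene, and it is in lower case throughout because no searched motif was found. Lgr4 is from chr2:109917397-109917646 (plus strand), Lgr6 from chr1:135105277-135105526 (minus strand), and Rnf43 from its starts at chr11:87662837-87663086 and chr11:87699647-87699896 (plus strand).
Lgr4: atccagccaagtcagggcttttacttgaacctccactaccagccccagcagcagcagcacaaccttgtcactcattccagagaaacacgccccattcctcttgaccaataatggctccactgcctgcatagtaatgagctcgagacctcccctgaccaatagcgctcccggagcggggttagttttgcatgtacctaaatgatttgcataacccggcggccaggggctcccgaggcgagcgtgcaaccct
Lgr6: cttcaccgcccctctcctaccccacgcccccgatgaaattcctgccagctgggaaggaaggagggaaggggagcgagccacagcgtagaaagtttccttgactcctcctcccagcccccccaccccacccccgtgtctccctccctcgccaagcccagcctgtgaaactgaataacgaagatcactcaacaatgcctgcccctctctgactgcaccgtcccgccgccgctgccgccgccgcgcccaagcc
Rnf43 first start: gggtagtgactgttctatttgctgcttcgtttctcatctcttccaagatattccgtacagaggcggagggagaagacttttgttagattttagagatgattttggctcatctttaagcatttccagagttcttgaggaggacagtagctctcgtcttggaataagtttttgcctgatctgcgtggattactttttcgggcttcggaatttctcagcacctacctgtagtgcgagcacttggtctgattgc
Rnf43 second start: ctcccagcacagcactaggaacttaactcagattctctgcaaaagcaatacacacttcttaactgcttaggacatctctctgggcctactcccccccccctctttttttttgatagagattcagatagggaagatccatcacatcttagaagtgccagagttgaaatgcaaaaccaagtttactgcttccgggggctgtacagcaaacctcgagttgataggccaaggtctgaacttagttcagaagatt
The TCF/LEF cores CTTTGAT and CTTTGAA and the SF1 element CAAGGTCA were searched on both strands. They occur in 3.21%, 4.46% and 1.33% of 32851 such windows of all genes, and in none of the windows of these 5 genes. The shorter core CTTTG, which the longer TCF/LEF cores contain and which was added after those searches, occurs in 48.6% of all windows and also in none of these. The absence of these letters from a window of 250 bases says nothing of sites elsewhere. The base composition differed within the set, with 55.6% G and C in Lgr4, 65.2% in Lgr6, and 44.4% and 45.2% at the starts of Rnf43, against a median of 52.4% over all windows.

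The values are log2 values from the robust multi-array average (RMA), and all differences are Wnt+ minus SF1+. Array medians lay between 3.13 and 3.23 over 20719 genes, and values of different genes are not compared, because probes differ in brightness. Pearson's r over genes was 0.962 to 0.968 within Wnt+, 0.972 to 0.983 within SF1+ and 0.926 to 0.969 across the groups, and precision is limited by having 7 arrays. The mean of 12 steroidogenic cortex markers was 8.15 to 8.90 in Wnt+ and 7.06 to 7.80 in SF1+. Among them Nr0b1 averaged 3.80 in Wnt+ and 2.95 in SF1+ and exceeded the array median in only 2 of 7 arrays. Nr5a1 itself averaged 7.30 ± 0.38 in Wnt+ (SD, n = 3) and 5.75 ± 0.47 in SF1+ (SD, n = 4), so the gene behind the SF1 reporter was not higher in the libraries labelled SF1+, and directions below rest on the labels. Markers of other cells also differed in level. The mean of 12 endothelial markers was 5.42 to 7.38 in Wnt+ and 7.54 to 8.06 in SF1+, that of 12 lymphocyte markers 2.79 to 2.85 in Wnt+ and 4.02 to 5.41 in SF1+, and that of 11 chromaffin markers 5.81 to 7.05 in Wnt+ and 4.46 to 5.81 in SF1+. In such bulk samples fewer cells of a type and less RNA per cell cannot be told apart.

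None of the 9 genes passed the threshold between the sorts (limma, adjusted p under 0.05 over all genes), where 0.256% of all genes did. At an unadjusted limma p under 0.05, Lgr4 and Lgr5 were higher in Wnt+, which is 2 of 9 genes against 7.61% of all genes called higher and 15.5% in either direction. All Wnt+ arrays lay above all SF1+ arrays for 1 of 9 genes, Lgr4, as for 7.04% of all genes, and in either direction the groups were apart for 14.1% of all genes. The median difference of the 9 genes was 0.12, against 0.02 over all genes. Of the 9 genes, 7 had a positive difference, as did 11364 of all 20719 genes.

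**Figure D1:**
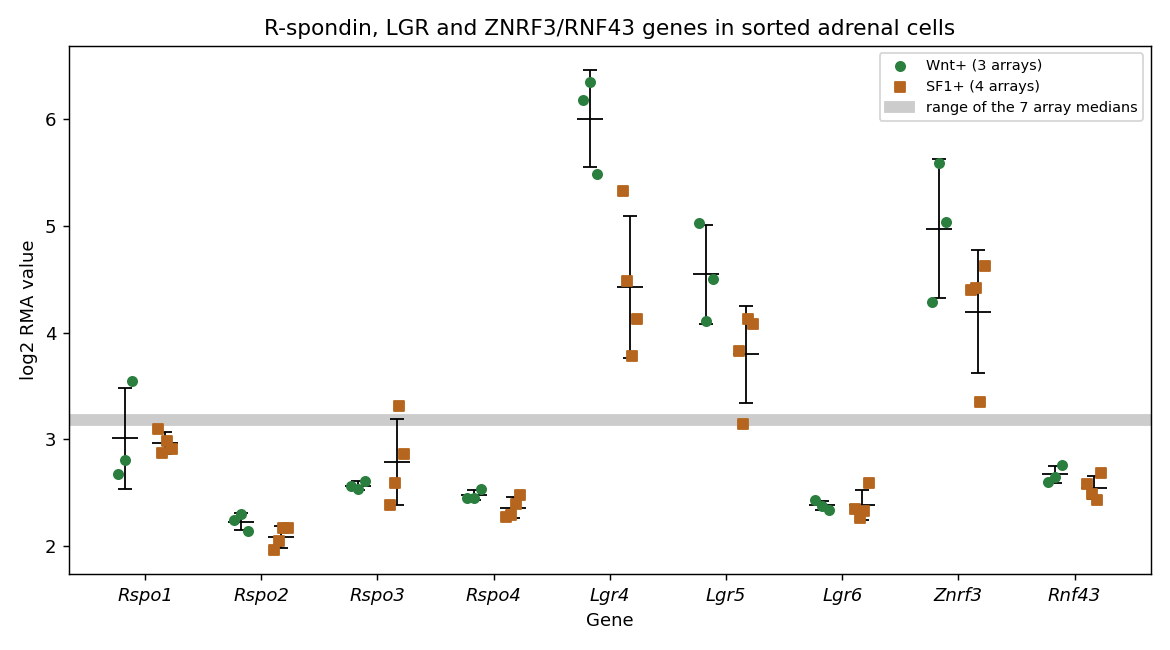
Log2 RMA values of the 9 genes in every array, with Wnt+ (circles, 3 arrays) left of SF1+ (squares, 4 arrays), horizontal ticks at group means and bars of 1 SD. The grey band spans the 7 array medians, 3.13 to 3.23. Lgr4 is the gene whose groups do not overlap, and Rspo2, Rspo4, Lgr6 and Rnf43 lie below the band in all 7 arrays.

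Of the receptors, Lgr4 differed most. Lgr4 encodes the R-spondin receptor with the broadest expression (transcript cluster 10474419). It was at 6.18, 6.35 and 5.49 in Wnt+ replicates 1, 2 and 3, against 5.33, 4.48, 3.78 and 4.13 in SF1+ replicates 1, 2, 3 and 4. Every Wnt+ array lay above every SF1+ array, with a gap of 0.16 between Wnt+ replicate 3 and SF1+ replicate 1. The means were 6.01 ± 0.46 (SD, n = 3) in Wnt+ and 4.43 ± 0.66 (SD, n = 4) in SF1+. The difference was 1.58 (SE 0.39, 95% interval 0.66 to 2.49), a ratio of 2.99, which did not pass over all genes (adjusted p = 0.136 in limma). Only 0.946% of all genes had a larger absolute difference. The spread within groups was also large, at a residual SD of 0.59, which 5.24% of genes exceeded.

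Lgr5, the R-spondin receptor best known as a stem cell marker of the intestine, had a smaller difference (transcript cluster 10372503). It was at 5.03, 4.11 and 4.50 in Wnt+ replicates 1, 2 and 3, against 3.83, 3.14, 4.13 and 4.08 in SF1+ replicates 1, 2, 3 and 4. The groups touched at one point, where Wnt+ replicate 2 was 0.01 below SF1+ replicate 3. The difference was 0.75 (SE 0.30, 95% interval 0.04 to 1.47), which did not pass over all genes (adjusted p = 0.30 in limma).

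Lgr6, the third R-spondin receptor, gave no separation of the sorts. It was at 2.43, 2.37 and 2.34 in Wnt+ replicates 1, 2 and 3, against 2.35, 2.26, 2.33 and 2.59 in SF1+ replicates 1, 2, 3 and 4, below the array median in all 7 arrays. The difference was -0.01 (SE 0.10, 95% interval -0.24 to 0.22, limma adjusted p = 0.987). Differences near the lower end of RMA values are compressed, so this interval limits the measured values more than the amount of RNA.

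Whether the receptors changed unequally was tested on the within-array difference of their values. Lgr4 minus Lgr6 was higher in Wnt+ by 1.58, at 3.15 to 3.98 in Wnt+ and 1.45 to 2.98 in SF1+ (two-sided exact permutation p = 0.0571, adjusted over 4 pairs 0.229). Lgr4 minus Lgr5 was higher by 0.83, with overlapping groups, at 0.99 to 2.24 in Wnt+ and -0.35 to 1.49 in SF1+ (exact permutation p = 0.286, adjusted 0.381). Because Lgr6 was dim in every array, the first of these values largely repeats the Lgr4 difference. The smallest p that 35 splits of 7 arrays can give is 0.0286, before adjustment over the 4 pairs, so these tests had little room to pass.

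Of the ligases, Znrf3 showed the wider spread. Znrf3 encodes the zinc and RING finger ligase that acts on Frizzled and LRP6 (transcript cluster 10383982). It was at 4.29, 5.59 and 5.04 in Wnt+ replicates 1, 2 and 3, against 4.40, 4.42, 3.35 and 4.62 in SF1+ replicates 1, 2, 3 and 4. The groups overlapped: Wnt+ replicate 1 lay below 3 of the 4 SF1+ arrays, and SF1+ replicate 3 was the lowest of all. The difference was 0.78 (SE 0.40, 95% interval -0.16 to 1.72, limma adjusted p = 0.418). Leaving out Wnt+ replicate 2 gave 0.47 and leaving out SF1+ replicate 3 gave 0.50, and a residual SD of 0.61 placed Znrf3 among the more variable genes, with 4.66% of genes above it.

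Rnf43, the homologous ligase, was below the array median in all 7 arrays (transcript cluster 10380116). It was at 2.60, 2.65 and 2.76 in Wnt+ replicates 1, 2 and 3, against 2.58, 2.49, 2.43 and 2.68 in SF1+ replicates 1, 2, 3 and 4. The ranges overlapped, and the difference was 0.12 (SE 0.09, 95% interval -0.09 to 0.34, limma adjusted p = 0.585). Znrf3 minus Rnf43 was 1.69 to 2.95 in Wnt+ and 0.92 to 1.94 in SF1+, a difference of 0.65 (exact permutation p = 0.229, adjusted over 4 pairs 0.381).

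The ligands were dim in both sorts. Rspo3, the capsular ligand, was at 2.56, 2.53 and 2.61 in Wnt+ replicates 1, 2 and 3, against 2.38, 2.59, 3.31 and 2.86 in SF1+ replicates 1, 2, 3 and 4 (transcript cluster 10368495). The Wnt+ arrays lay close together and the SF1+ arrays on both sides of them, and only SF1+ replicate 3 exceeded its array median. The difference was -0.22 (SE 0.21, 95% interval -0.72 to 0.29, limma adjusted p = 0.699), with a value of -0.04 when SF1+ replicate 3 was left out. The mean of 12 capsule and fibroblast markers, without Rspo3, was 5.42, 4.16 and 5.21 in Wnt+ replicates 1, 2 and 3, against 4.16, 4.82, 4.53 and 4.38 in SF1+ replicates 1, 2, 3 and 4. Rspo3 was too dim for its order over the arrays to be set against that of these markers. The median difference of the 12 markers was 0.54, against 0.02 over all genes. Gli1, which marks capsular cells that receive hedgehog signals, averaged 2.94 in Wnt+ and 2.87 in SF1+. It was below the array median in every array, so these values say little of the capsule.

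Rspo1, the ligand known for its role in ovary development, rested on one array (transcript cluster 10508012). It was at 2.67, 2.81 and 3.55 in Wnt+ replicates 1, 2 and 3, against 3.10, 2.87, 2.98 and 2.91 in SF1+ replicates 1, 2, 3 and 4. Wnt+ replicate 3 was the highest of all arrays and Wnt+ replicates 1 and 2 the lowest. The difference was 0.04 (SE 0.21, 95% interval -0.45 to 0.54, limma adjusted p = 0.953), and it was -0.23 without Wnt+ replicate 3. Rspo1 minus Rspo3 differed between the sorts by 0.26 (exact permutation p = 0.429, adjusted over 4 pairs 0.429), a value that was 0.01 without Wnt+ replicate 3.

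Rspo2 and Rspo4, the remaining ligands, were below the array median in all 7 arrays. Rspo2, a ligand of limb and lung development, was at 2.24, 2.30 and 2.14 in Wnt+ replicates 1, 2 and 3, against 1.96, 2.05, 2.17 and 2.17 in SF1+ replicates 1, 2, 3 and 4. Rspo4, a ligand needed for nail growth in humans, was at 2.45, 2.45 and 2.53 in Wnt+ replicates 1, 2 and 3, against 2.27, 2.29, 2.39 and 2.48 in SF1+ replicates 1, 2, 3 and 4. Their differences were 0.14 (SE 0.09) for Rspo2 and 0.12 (SE 0.08) for Rspo4, with limma adjusted p of 0.511 and 0.551. The groups overlapped by 0.03 in each case.

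**Figure D2:**
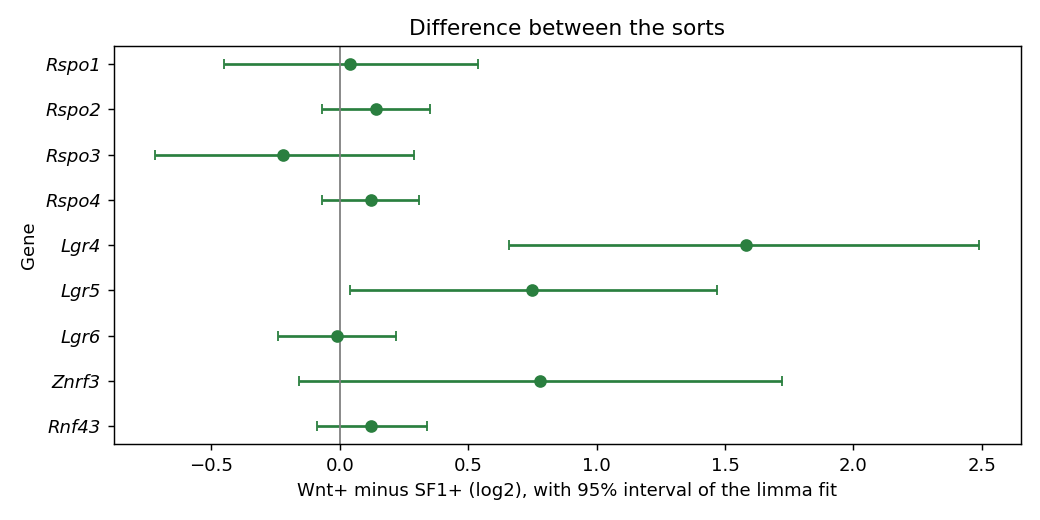
Differences between the sorts, Wnt+ minus SF1+ on the log2 scale, for the 9 genes from top to bottom, with the 95% interval of the limma fit as bars. The intervals of Lgr4 (0.66 to 2.49) and Lgr5 (0.04 to 1.47) lie above 0 without adjustment for the 20719 genes tested.

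Lgr4 and the steroidogenic markers were highest and lowest in the same SF1+ arrays, with other arrays in another order. Of the SF1+ arrays, replicate 1 had the highest Lgr4 (5.33) and the highest mean of the 12 cortex markers (7.80), and replicate 3 the lowest Lgr4 (3.78) and the lowest marker mean (7.06). Between them, replicate 2 had a higher Lgr4 than replicate 4 (4.48 against 4.13) with the lower marker mean (7.18 against 7.46). Of the Wnt+ arrays, replicate 2 had the highest Lgr4 (6.35) and the highest marker mean (8.90), while replicate 3 had a lower Lgr4 than replicate 1 (5.49 against 6.18) with the higher marker mean (8.34 against 8.15). Relative to that mean in the same array, Lgr4 was at -1.97, -2.55 and -2.85 in Wnt+ replicates 1, 2 and 3, against -2.47, -2.70, -3.28 and -3.33 in SF1+ replicates 1, 2, 3 and 4. The groups then overlapped, with a difference of 0.49 (exact permutation p = 0.257, adjusted over the 3 genes scaled in this way 0.471). Scaled likewise, Lgr5 differed by -0.34 (exact permutation p = 0.6, adjusted 0.6) and Znrf3 by -0.31 (exact permutation p = 0.314, adjusted 0.471). The scaling lowers the difference of every gene by 1.09, the difference of the marker mean itself. This scaling was chosen after the data were seen. Of the 12 cortex markers all had a positive difference, with a median of 1.02, and 0 passed over all genes. At an unadjusted limma p under 0.05, 11 of them were higher, against 7.61% of all genes. The corticosterone-forming enzyme gene Cyp11b1 averaged 9.05 ± 0.20 in Wnt+ (SD, n = 3) and 7.36 ± 0.42 in SF1+ (SD, n = 4), and Star, which carries cholesterol into mitochondria, averaged 10.12 ± 0.15 in Wnt+ (SD, n = 3) and 9.09 ± 0.44 in SF1+ (SD, n = 4). The permutation tests of the scaled values concern what was left after scaling, and 35 splits can give no p below 0.0286. The part of the cortex, endothelial, lymphocyte and chromaffin levels in the Lgr4 difference was not itself tested.

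**Figure D3:**
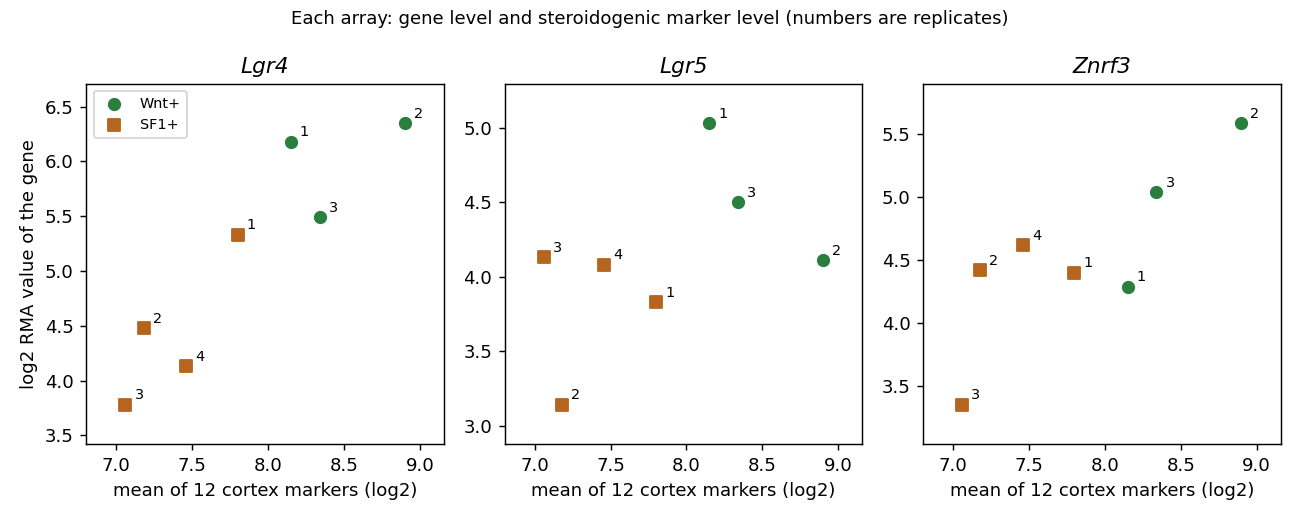
Log2 values of Lgr4, Lgr5 and Znrf3 (vertical axes) against the mean log2 value of 12 steroidogenic cortex markers in the same array (horizontal axis), with Wnt+ as circles, SF1+ as squares and replicate numbers beside them. The Wnt+ marker means run from 8.15 to 8.90 and the SF1+ means from 7.06 to 7.80. Lgr4 and Znrf3 are lowest in the SF1+ array with the lowest mean, replicate 3, where Lgr5 is the highest of the SF1+ arrays (4.13). In Wnt+ replicate 2, which has the highest mean, Lgr5 is the lowest of the Wnt+ arrays (4.11).

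The genes whose pattern over the 7 arrays was nearest to that of the most variable members were found by the root mean square distance of mean-centred log2 values. For Lgr4 (SD 1.00 over the 7 arrays) they were Frmd6, at a distance of 0.23, Pip5k1b (0.26), Hspa4l (0.27), Fat1 (0.28) and Echdc2 (0.28). Their differences lay between 1.33 for Frmd6 and 1.74 for Hspa4l, and none passed the threshold (limma adjusted p of 0.0862 to 0.126). Frmd6 was at 6.49, 6.85 and 6.03 in Wnt+ replicates 1, 2 and 3, against 5.64, 5.42, 4.57 and 4.88 in SF1+ replicates 1, 2, 3 and 4. For Znrf3 (SD 0.69) they were Cyfip2 (0.17), Zfp938 (0.19), Cpt2 (0.19), Hoxc8 (0.20) and Gstm7 (0.20), with SF1+ replicate 3 the lowest array for each of these 5 genes, as for Znrf3. The genes were chosen for nearness over the same 7 arrays, so a shared lowest array largely follows from that choice.

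The receptors on which the ligases act gave no call. Of 12 Frizzled and LRP5/6 genes, 0 passed over all genes. At an unadjusted limma p under 0.05 there were 3 higher and 1 lower, with a median of -0.01. Of all genes, 7.61% were higher and 15.5% differed in either direction at that p. Lrp6, the co-receptor gene, was at 5.99, 6.24 and 6.07 in Wnt+ replicates 1, 2 and 3, against 5.26, 5.45, 5.10 and 5.79 in SF1+ replicates 1, 2, 3 and 4. Its groups did not overlap, and its difference of 0.70 (SE 0.17) had a limma adjusted p of 0.133. Fzd7 differed by 0.43, Fzd2 by 0.33 and Fzd8 by -0.40, with limma adjusted p of 0.197 to 0.319.

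Among 14 other binding partners of these proteins, 0 passed over all genes. The unadjusted limma p was under 0.05 for 4 with a higher and 1 with a lower level (median 0.14). For this list and those below, the shares over all genes are again 7.61% higher and 15.5% in either direction. Sdc2, a heparan sulfate proteoglycan of the syndecan family, was at 6.28, 6.72 and 5.68 in Wnt+ replicates 1, 2 and 3, against 4.73, 5.20, 4.89 and 5.00 in SF1+ replicates 1, 2, 3 and 4. The groups did not overlap, and the difference was 1.27 (SE 0.24, limma adjusted p = 0.0972). Bmpr1a, a BMP receptor that Rspo2 can bring to Znrf3 in Xenopus, differed by 1.19 (SE 0.35), the glypican gene Gpc4 by 1.13 (SE 0.36), and Dvl3, of the Dishevelled family that links Frizzled to these ligases, by 0.46 (SE 0.13). Of 19 Wnt ligands, 0 passed and 2 were higher at an unadjusted limma p under 0.05 (median 0.02). Wnt4, the ligand of the outer cortex, differed by 1.07 (SE 0.22, limma adjusted p = 0.113). The other of the 2, Wnt10b, differed by 0.22. Like most of the 19 ligands, it was below the array median in every array, where differences are compressed. Of 18 Wnt target and feedback genes, 0 passed and 3 were higher at an unadjusted limma p under 0.05 (median 0.18). Tnfrsf19 differed by 0.61 (SE 0.17), Prox1 by 0.92 (SE 0.30) and Nkd1 by 0.80 (SE 0.26), with limma adjusted p of 0.168 to 0.219. The groups were apart for Tnfrsf19 and Prox1 and overlapped by 0.04 for Nkd1. Axin2, the standard feedback inhibitor, was at 4.08, 4.78 and 5.63 in Wnt+ replicates 1, 2 and 3, against 4.62, 3.60, 3.88 and 4.52 in SF1+ replicates 1, 2, 3 and 4, so the groups overlapped.

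A separate experiment of the same authors gave calls for 5 of the 9 genes. The authors' deposited table holds, for each gene, the fold of Bio over vehicle in 4 pairs of samples of mouse adrenocortical tumor cell lines and a paired p-value. The sample values and the nature of the agent are not described there. The p-values were adjusted here by Benjamini-Hochberg over all 20719 genes, of which 18.9% passed 0.05 (9.82% higher and 9.06% lower). In the authors' deposited table both ligases rose with Bio. Rnf43 was at 2.03-fold of vehicle (adjusted p = 0.0308) and Znrf3 at 1.41-fold (adjusted p = 0.0189) in the authors' deposited table.

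The LGR receptors went in different directions in the authors' deposited table. Lgr5 rose to 1.30-fold of vehicle (adjusted p = 0.0393), while Lgr4 fell to 0.625-fold (adjusted p = 0.0141) and Lgr6 to 0.50-fold (adjusted p = 0.0171). The difference between these folds could not be tested without sample values. The upstream windows printed above for Lgr4, which fell, and Rnf43, which rose, held none of the searched motifs. Of the ligands in the authors' deposited table, Rspo3 was at 0.819-fold (adjusted p = 0.0539), Rspo1 at 0.992-fold, Rspo2 at 0.974-fold and Rspo4 at 0.986-fold, with adjusted p of 0.724 to 0.817 for these last 3. Axin2 rose to 8.09-fold (adjusted p = 0.0112) in the authors' deposited table, and the targets Tnfrsf19 (2.08-fold), Tcf7 (2.02-fold) and Sp5 (1.86-fold) rose too. Of the 18 Wnt target and feedback genes, 4 rose and 7 fell in the authors' deposited table, where those that fell included Dkk1 (0.155-fold) and Bmp4 (0.283-fold). Lrp6 (0.703-fold), Fzd4 (0.704-fold) and Fzd8 (0.394-fold) fell in the authors' deposited table, and no Frizzled or LRP gene rose.

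Set side by side, Lgr4 had a positive difference between the sorts (1.58, not past the threshold) and fell with Bio in the authors' deposited table (-0.68 on the log2 scale). Lgr5 (0.75) and Znrf3 (0.78) had positive differences between the sorts, not past the threshold. With Bio, Lgr5 and Znrf3 rose by 0.38 and 0.49 on the log2 scale in the authors' deposited table. Relative to the cortex markers, the differences between the sorts were 0.49 for Lgr4, -0.34 for Lgr5 and -0.31 for Znrf3. Rnf43 differed by 0.12 between the sorts, where it was below the array median in all 7 arrays and differences are compressed. With Bio, Rnf43 rose by 1.02 on the log2 scale in the authors' deposited table. Cells, arrays and the agent differ between these experiments, and the difference between them was not tested.

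**Figure D4:**
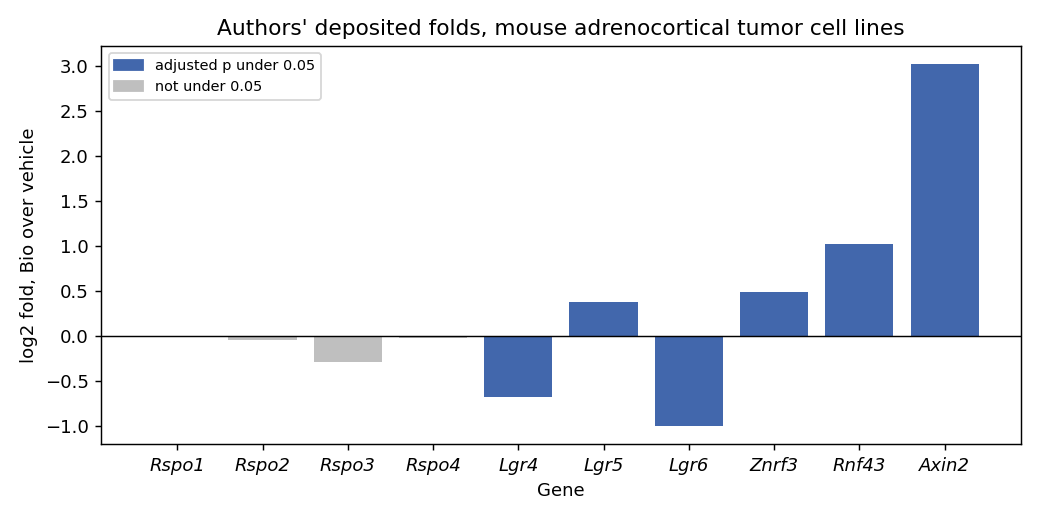
Log2 folds of Bio over vehicle in mouse adrenocortical tumor cell lines, from the authors' deposited table, for the 9 genes and Axin2 (bars from 0, without error because sample values were not used). Blue bars had an adjusted p under 0.05: Lgr5, Znrf3, Rnf43 and Axin2 lie above 0, Lgr4 and Lgr6 below, and the 4 ligands are grey.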

How the data were processed

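For 7 Affymetrix mouse gene arrays, the authors deposited log2 values of each transcript cluster, made with RMA on perfect-match probes per the file headers, and with the oligo package per the submitters' processing notes, which give no version. RMA forces the arrays onto 1 distribution, so a change of total RNA per cell is not visible, and dim values are compressed. The authors also deposited unadjusted p-values and linear fold changes for this comparison and for Bio against vehicle, per the file headers. The 7 sample columns of a sheet for drawing were not used. The labels state 4 sorts per genotype, and 3 were analysed here for Wnt+.

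Of 28944 clusters, 23812 had a symbol, and 23508 of these matched a RefSeq gene (GRCm38.p6) used for current symbols. Where a gene had several clusters the one of highest mean was kept, which gave 20719 genes, with no filter on dim genes. No genome build is named in the array files, so coordinates are given only for the promoter windows, which carry RefSeq's own build. Groups came from the sample titles. The model was limma's lmFit and eBayes (version 3.58.1, R 4.3.3; group as the only term, prior degrees of freedom 1.98), two-sided, with Benjamini-Hochberg adjustment over all genes and a threshold of 0.05. The script was tested on simulated data. Exact permutation tests used scipy 1.17.1. The members and lists were chosen with earlier results of these data known, and lists are given by counts and medians. Named genes were the 9 members, the genes nearest in pattern to the 2 most variable members, and up to 4 genes per list with the smallest p, with a few others chosen after their values were seen (Axin2, Gli1, Star and genes named from the tumor cell line comparison). The replicate number was tried as a block, but deviations of same-numbered arrays correlated at -0.217, 0.0344 and -0.214, so the numbers do not pair the arrays. Other alternatives were each array left out, other scalings, filters, moderation, cluster choices and the series matrix values.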

Additional observations from a re-analysis of the deposited data

How the results depend on the processing

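The count of 0 of the 9 genes past the threshold was the same under all 19 alternatives run, with 1 or 2 of them at an unadjusted p under 0.05. The Lgr4 difference stayed positive, at 1.36 to 1.88 with arrays left out in turn and 1.48 to 1.64 under the other alternatives, with a limma adjusted p of 0.0566 to 0.326. Lgr5 ranged from 0.51 to 0.97 and Znrf3 from 0.47 to 1.12. The other 6 genes have no value with dim genes left out. Lgr6 ranged from -0.0478 to 0.0634 with arrays left out. It turned positive without SF1+ replicate 4 or with the replicate block (0.0634 in both), without Wnt+ replicate 3 (0.0135), with median-centring (0.0011) and with array weights (0.00387). Rspo1 ranged from -0.23 to 0.22 with arrays left out, and was -0.23 without Wnt+ replicate 3. The count over all genes, 53, varied widely: it was 1 to 312 with arrays left out, 0 with the replicate block (limma, 2468 at an unadjusted p under 0.05) and 0 with the methods' t-test of pooled variance (2684 at an unadjusted p under 0.05). It was 27 with median-centring, 33 with array weights, 155 with trended and robust moderation, 212 and 221 with dim genes left out, and 1 at a threshold of 0.01. The causes were not tested. With arrays left out, where no test of a pair could pass, Lgr4 minus Lgr5 was 0.44 (without Wnt+ replicate 2) to 1.11, and 0.50 without SF1+ replicate 3. Lgr4 minus Lgr6 was 1.39 to 1.90. Znrf3 minus Rnf43 was 0.33 (without Wnt+ replicate 2) to 0.96, and 0.41 without SF1+ replicate 3. Rspo1 minus Rspo3 was 0.01 (without Wnt+ replicate 3) to 0.44 (without SF1+ replicate 1), with 0.09 without SF1+ replicate 3 and 0.43 without Wnt+ replicate 1. The block changed no call among the 9 genes. Dim probes and 7 arrays limit what could be seen of Rspo1 to Rspo4, Lgr6 and Rnf43.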

Other observations

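Other members of the protein families of LGR4 and ZNRF3 were read from the same fit. Of 5 other leucine-rich repeat G protein-coupled receptors (Lhcgr, Fshr, Tshr, Rxfp1 and Rxfp2), 0 passed with limma, and 0 had an unadjusted p under 0.05. All 5 were below the array median in every array, where differences are compressed. Lhcgr, the luteinising hormone receptor, was at 2.13, 2.07 and 1.99 in Wnt+ replicates 1, 2 and 3, against 2.06, 2.22, 2.82 and 2.22 in SF1+ replicates 1, 2, 3 and 4. Of 10 other membrane RING ligases with a protease-associated domain, 0 passed and 1, Rnf215, was lower at an unadjusted limma p under 0.05 (-0.45, SE 0.15, limma adjusted p = 0.228). Rnf128 was at 3.04, 4.28 and 3.13 in Wnt+ replicates 1, 2 and 3, against 3.02, 3.00, 2.83 and 2.95 in SF1+ replicates 1, 2, 3 and 4, so its difference of 0.53 rested on Wnt+ replicate 2. In the authors' deposited table Rnf128 rose with Bio to 1.64-fold (adjusted p = 0.0229) and Rnf150 fell to 0.47-fold (adjusted p = 0.0162).

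In the remaining marker lists, 0 of 12 capsule and fibroblast markers passed with limma (1 higher at an unadjusted p under 0.05, median 0.54), and Postn, a matrix protein, differed by 1.26 (SE 0.40). Of 12 lymphocyte markers, 5 fell over all genes (Klrd1, Lck, Cd7, Nkg7 and Il2rb) and 0 rose, where 0.256% of all genes passed in either direction. All Wnt+ arrays lay below all SF1+ arrays for 9 of the 12, where 14.1% of all genes were apart in either direction. The count past the threshold changed with the arrays kept. Without SF1+ replicate 2, 3 or 4 or without Wnt+ replicate 2 or 3, only 1 to 8 of all genes passed in limma. The lymphocyte count was 0 in each of those settings, and 6 without SF1+ replicate 1 or Wnt+ replicate 1. It was also 0 with the replicate block and with the methods' t-test, and in each of these settings with 0 calls, 9 markers were lower at an unadjusted p under 0.05. Of 12 endothelial and 11 chromaffin markers, 0 passed with limma, and 11 endothelial markers were lower and 5 chromaffin markers higher at an unadjusted p under 0.05. Of 10 macrophage markers 0 passed and 2 were lower at an unadjusted limma p under 0.05, and of 8 Schwann and sustentacular markers 0 passed and 2 were higher. Beside these list counts, 7.61% of all genes were higher and 15.5% differed in either direction at an unadjusted limma p under 0.05.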
